A study of Mus musculus with 4 samples.

Results

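Trimethylation of lysine 4 and of lysine 9 of histone H3 (H3K4me3 and H3K9me3) was described at the 38 Hox genes of the 4 Hox clusters that were analysed here, out of 21887 protein-coding genes. A gene was a member when its symbol was Hoxa, Hoxb, Hoxc or Hoxd followed by a number. This rule uses no measured value, but the members were chosen with earlier results of these data known. There were 10 members in the Hoxa cluster on chromosome 6, 10 in Hoxb on chromosome 11, 9 in Hoxc on chromosome 15 and 9 in Hoxd on chromosome 2. The cells were macrophages from the peritoneum of C57BL/6 mice aged 8 weeks, recruited there by thioglycollate broth and allowed to adhere to dishes. They were given lipopolysaccharide (LPS), a component of the bacterial cell wall that activates Toll-like receptor signalling, or phosphate-buffered saline (PBS) as its control, each for 24 h. Chromatin immunoprecipitation and sequencing gave 4 libraries, namely H3K4me3 after LPS, H3K4me3 after PBS, H3K9me3 after LPS and H3K9me3 after PBS. Each group held 1 library, so no difference between LPS and PBS has a replicate check and none was tested. The number of animals behind a library is not given in the labels.

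Hox genes encode homeodomain transcription factors that give the cells of an embryo their position along the body axis. Within a cluster all members are read in the same direction. Low-numbered genes lie at the 3′ end and are used early and towards the head, and high-numbered genes lie at the 5′ end and are used late and towards the tail. In cells that do not need them, Polycomb complexes hold the clusters silent under trimethylated lysine 27 of histone H3, often together with H3K4me3, and trithorax (MLL) complexes place H3K4me3 where the genes are in use. Several members, among them Hoxa9, Hoxa10 and Hoxb4, also act in blood stem and progenitor cells. H3K9me3 is best known from heterochromatin and silenced repeats.

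The clusters also hold microRNA genes, whose mature products shown here carry 3 different seeds, the bases by which a microRNA pairs with its targets. Their sequences are shown because these genes lie between the Hox genes and meet some of the same peaks. They are from RefSeq, 5′ to 3′, with the seed (bases 2 to 8) in capitals.

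mmu-miR-196b-5p: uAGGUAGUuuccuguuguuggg
mmu-miR-196a-5p: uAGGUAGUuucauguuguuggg
mmu-miR-10a-5p: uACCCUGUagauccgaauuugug
mmu-miR-10b-5p: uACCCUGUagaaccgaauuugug
mmu-miR-615-3p: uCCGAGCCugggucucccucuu

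The mature forms of miR-196a and miR-196b shared their seed and differed at 1 of 22 bases (A12C, counted from the 5′ end, with miR-196a first). Those of miR-10a and miR-10b shared another seed and differed at 1 of 23 bases (U12A, with miR-10a first). For the promoters, the 250 bases before the annotated start were taken from RefSeq (GRCm38.p6) for the 22 members found in the promoter table, 2 of which (Hoxa10 and Hoxd11) had a pair of windows. Below are 4 of these windows, written 5′ to 3′ along the gene, with CpG dinucleotides in capitals. Hoxd13 and Hoxd1 lay in H3K4me3 peaks of both libraries, while Hoxa9 and Hoxd4 lay in no peak of any library. They were chosen after their values were seen.

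Hoxd13 (chr2:74667975-74668224, plus strand): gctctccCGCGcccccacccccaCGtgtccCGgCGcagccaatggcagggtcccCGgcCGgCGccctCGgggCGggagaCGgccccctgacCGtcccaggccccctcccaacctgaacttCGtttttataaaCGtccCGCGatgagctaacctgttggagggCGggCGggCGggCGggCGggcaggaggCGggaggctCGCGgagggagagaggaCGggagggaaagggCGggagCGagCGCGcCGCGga
Hoxd1 (chr2:74762730-74762979, plus strand): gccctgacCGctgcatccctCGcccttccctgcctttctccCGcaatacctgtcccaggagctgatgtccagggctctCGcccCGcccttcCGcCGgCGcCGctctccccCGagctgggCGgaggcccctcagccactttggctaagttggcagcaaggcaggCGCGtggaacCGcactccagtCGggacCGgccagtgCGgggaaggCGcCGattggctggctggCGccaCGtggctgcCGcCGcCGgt
Hoxa9 (chr6:52227371-52227620, minus strand): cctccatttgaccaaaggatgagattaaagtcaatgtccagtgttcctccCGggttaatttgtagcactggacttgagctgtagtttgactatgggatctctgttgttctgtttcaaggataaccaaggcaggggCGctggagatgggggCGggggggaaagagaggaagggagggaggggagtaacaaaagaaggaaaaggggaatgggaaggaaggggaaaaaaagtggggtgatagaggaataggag
Hoxd4 (chr2:74721728-74721977, plus strand): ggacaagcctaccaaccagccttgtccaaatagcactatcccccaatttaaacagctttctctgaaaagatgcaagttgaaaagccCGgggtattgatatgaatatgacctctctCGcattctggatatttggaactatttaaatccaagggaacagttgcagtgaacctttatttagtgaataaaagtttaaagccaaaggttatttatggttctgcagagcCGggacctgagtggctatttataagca

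The windows of Hoxd13 and Hoxd1 held 31 and 24 CpG, and those of Hoxa9 and Hoxd4 held 3 each.

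The authors called peaks in each library by itself with MACS and no control library, and deposited its coordinates, its tag count (mapped reads) and a score, which is minus 10 times the base 10 logarithm of the caller's p-value. Filtered libraries held between 26748289 and 29681491 tags. The lists held 28505 (LPS) and 31398 (PBS) H3K4me3 peaks and 17369 (LPS) and 19279 (PBS) H3K9me3 peaks. A gene without a listed peak was under the caller's threshold and may still carry the mark. A value below is the sum of tags in the peaks that met the gene body or 1 kb on either side. A ratio is log2 of LPS over PBS tags, each per filtered tag of its library, with an exact 95% Clopper-Pearson interval that covers counting error only. Over the 14731 genes with H3K4me3 peaks in both lists the median log2 ratio was -0.37 (quartiles -0.55 and -0.20), a general shift towards PBS against which the members are read.

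The label of the cells was checked against marker genes. Over all protein-coding genes 68.7% had an H3K4me3 peak in LPS and 70.2% in PBS. A peak at a marker therefore does not by itself show that its cell type was present. All 10 macrophage markers, such as Csf1r and Adgre1, had H3K4me3 peaks in both lists, and the list summed 3817 tags in LPS and 4702 in PBS. Mesothelium and fibroblast markers, of cell types that use Hox genes, had peaks at 6 of 13 in LPS (1060 tags) and 9 of 13 in PBS (1523 tags). Upk3b, Krt8, Krt19 and Col1a2 were listed in PBS only, Col3a1 in LPS only, and Msln, Dcn and Lum in neither. Pdgfrb had 188 tags in LPS, on 2.65 kb, and 62 in PBS, on 0.72 kb. Progenitor markers had peaks at 7 of 8 in LPS (2089 tags) and 8 of 8 in PBS (2847 tags). B cell markers had peaks at 3 of 7 in each library (545 tags in LPS, 779 in PBS). T cell markers had peaks at 3 of 9 (258 tags in LPS, 361 in PBS) and markers of mast cells and eosinophils at 2 of 8 (276 tags in LPS, 268 in PBS). Of the latter, Siglecf had 75 tags in LPS, on 1.42 kb, and 32 in PBS, on 0.56 kb (a log2 ratio of 1.38, 0.76 to 2.02). Neutrophil markers had peaks at 3 of 8 in LPS (317 tags) and 2 of 8 in PBS (269 tags). Among these lists Zap70, Camp and S100a8 were listed in LPS only (all genes 1.43%), and Cd5, Mmp8 and Mpo in PBS only (all genes 2.93%). In these bulk samples a change in the mix of cells and a change within a cell cannot be told apart, and the part of other cell types in the Hox signal was not tested.

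Listed H3K4me3 peaks met nearly the whole Hox family in these macrophages, many of them of low score. Of the 38 members, 35 (92.1%) had a peak in both lists, against 67.3% of all protein-coding genes. In the LPS list 35 members had a peak (all genes 68.7%) and in the PBS list 37 (all genes 70.2%). Hoxa9 and Hoxd4 were listed in PBS only (all genes 2.93%), no member in LPS only (all genes 1.43%), and Hoxd12 in neither. With scores of 100 or more only, the order turned, since 21 members (55.3%) had a peak in both lists, against 62.1% of all genes. The peaks were wider than those of the genome. The clusters held 56 peaks in each library, whose median length was 1160 bp (LPS) and 1294 bp (PBS), where all peaks of the genome had medians of 1006 bp (LPS) and 1050 bp (PBS). Scores were under 100 at 51.8% of these peaks in LPS and 42.9% in PBS, against 41.3% (LPS) and 37.5% (PBS) of all peaks. The caller set each peak against the 10000 bp around it in the same library, and inside a cluster that background includes neighbouring peaks. Its effect on the scores was not tested.

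**Figure D1:**
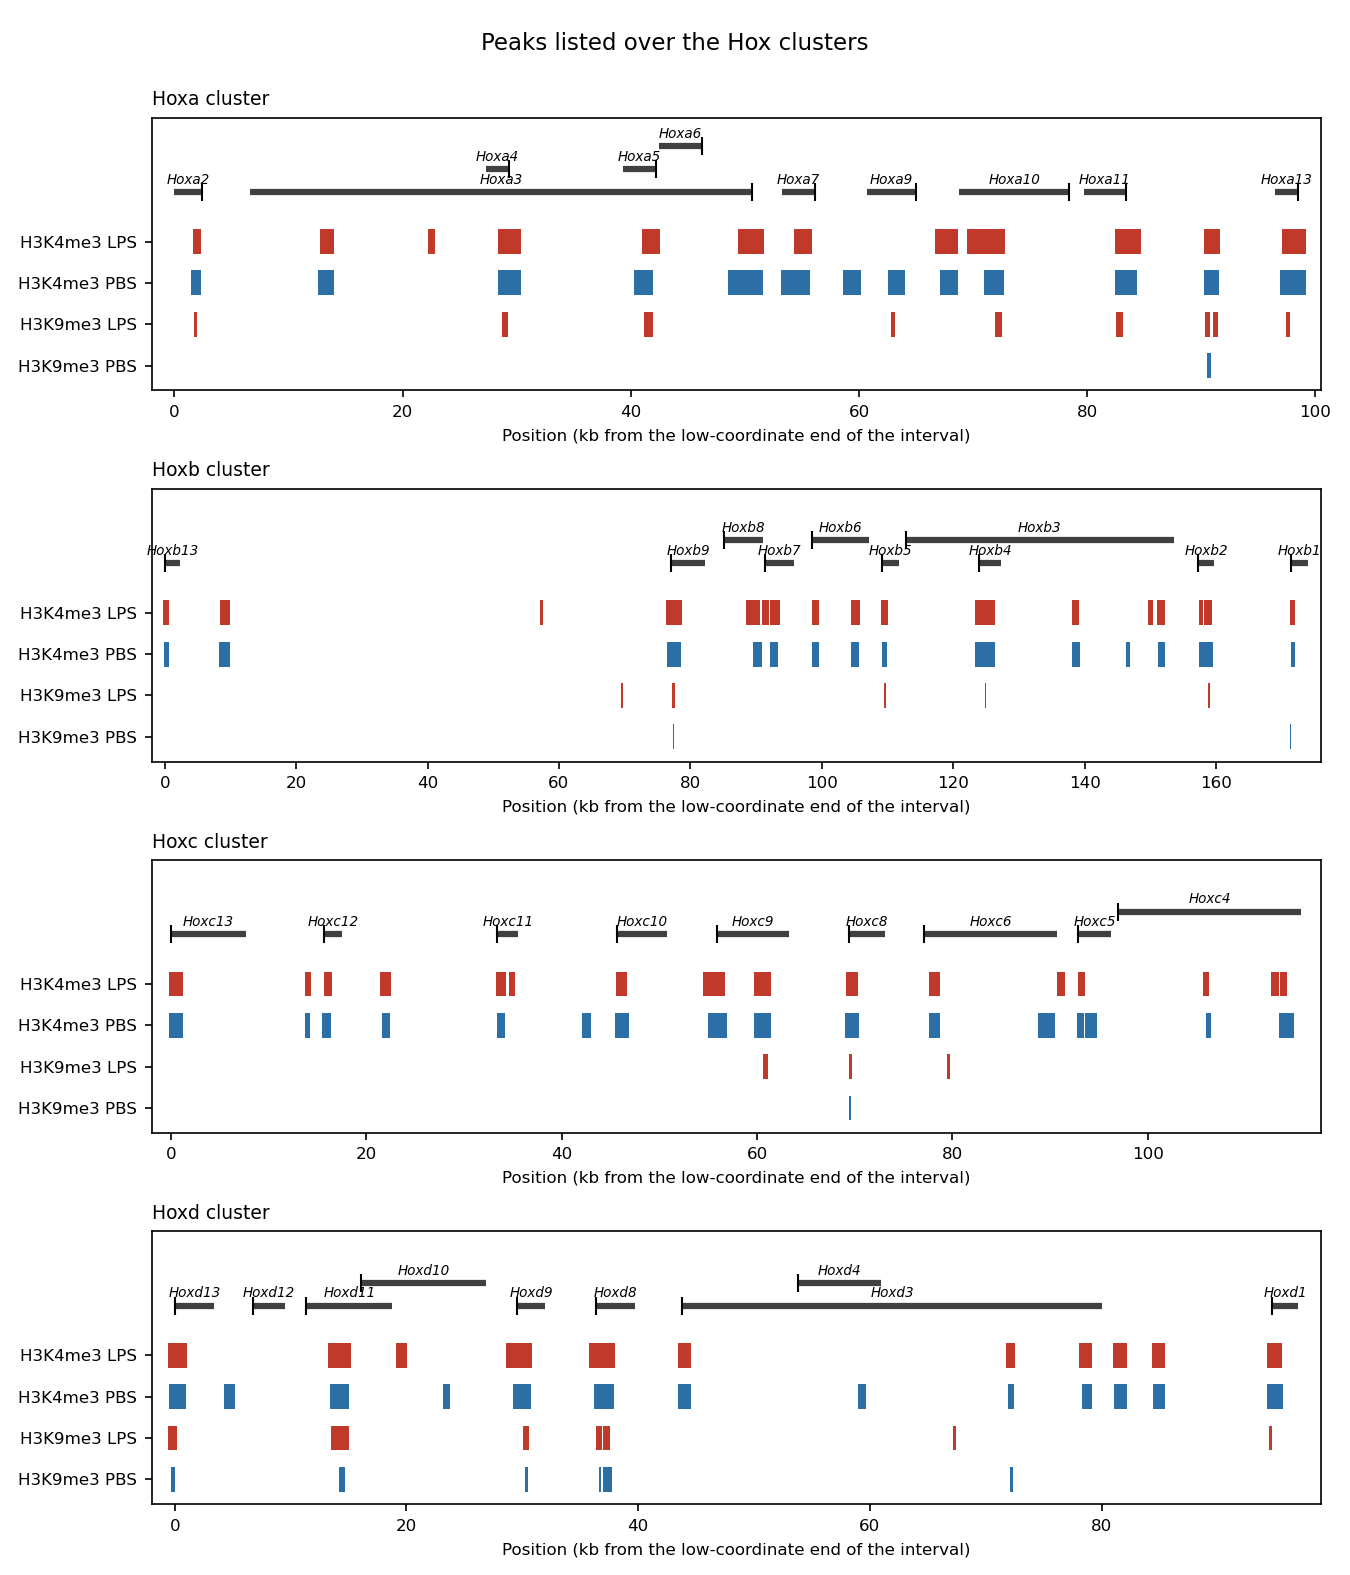
Listed peaks of the 4 libraries along each Hox cluster, in kb from the low-coordinate end of the interval, with LPS in red above PBS in blue. Grey bars are gene bodies and the tick on each marks its 5′ end. H3K4me3 peaks run through all 4 clusters in both treatments, whereas H3K9me3 peaks number 26 in LPS and 10 in PBS, and in Hoxa 9 in LPS and 1 in PBS.

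Peaks lay both at starts and inside the clusters. The outermost 5′ end of the gene model lay inside an H3K4me3 peak for 24 members in LPS and 21 in PBS. For 14 members this outermost end lay in no peak of either library. Within 1 kb of a peak were 29 of these 5′ ends in each library. Some of the 14 have a further annotated start inside the model. Promoter windows at such inner starts met peaks of both libraries at Hoxa10 and Hoxd11, of LPS only at Hoxc4 and of PBS only at Hoxd10. The 14 are therefore not all without H3K4me3 at a start. Between members lay 6 LPS peaks and 7 PBS peaks. Because Hox genes are close together and the gene models of Hoxa3, Hoxb3 and Hoxd3 run over their neighbours, 7 LPS peaks and 5 PBS peaks met 2 or more members. Hoxa3, Hoxa5 and Hoxa6 met the same peak, so members are not independent of each other.

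Relative to other genes, the Hox members kept more of their H3K4me3 tags in LPS. The median log2 ratio of the 35 members was -0.01 (quartiles -0.30 and 0.31), which is 0.36 above the median of all genes, and 28 of the 35 lay above that median. With scores of 100 or more the medians were -0.23 for the members and -0.38 for all genes. In tags per covered kb the difference from all genes was 0.05. Most of the difference therefore went with the length called rather than with tag density. A ratio of 2 or more in favour of LPS was reached by 3 of 35 members (all genes 0.713%), Hoxd10, Hoxc11 and Hoxb8, and in favour of PBS by Hoxc5 alone (all genes 4.64%). At Hoxc11, Hoxb8 and Hoxc5 a peak listed in only 1 library brought the ratio past 2. At Hoxd10 most of the LPS tags came from a region of both lists whose PBS peak ended just outside the gene's window. Where the lists were merged into regions, 63 H3K4me3 regions resulted, of which 47 had peaks of both libraries, 7 of LPS only and 9 of PBS only. Over the genome 60.6% of regions had peaks of both libraries, 15.4% of LPS only and 24% of PBS only. None of the 47 shared regions reached a ratio of 2 in either direction. Among all shared regions 0.743% did in favour of LPS and 3.14% in favour of PBS. The log2 ratios of the 47 ran between -0.61 and 0.81. Their median was 0.06, against -0.31 over all 22220 shared regions of the genome, and 41 of 47 lay above that genome median. In tags per covered kb the medians were -0.12 in the clusters and -0.15 over the genome, with 27 of 47 above.

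**Figure D2:**
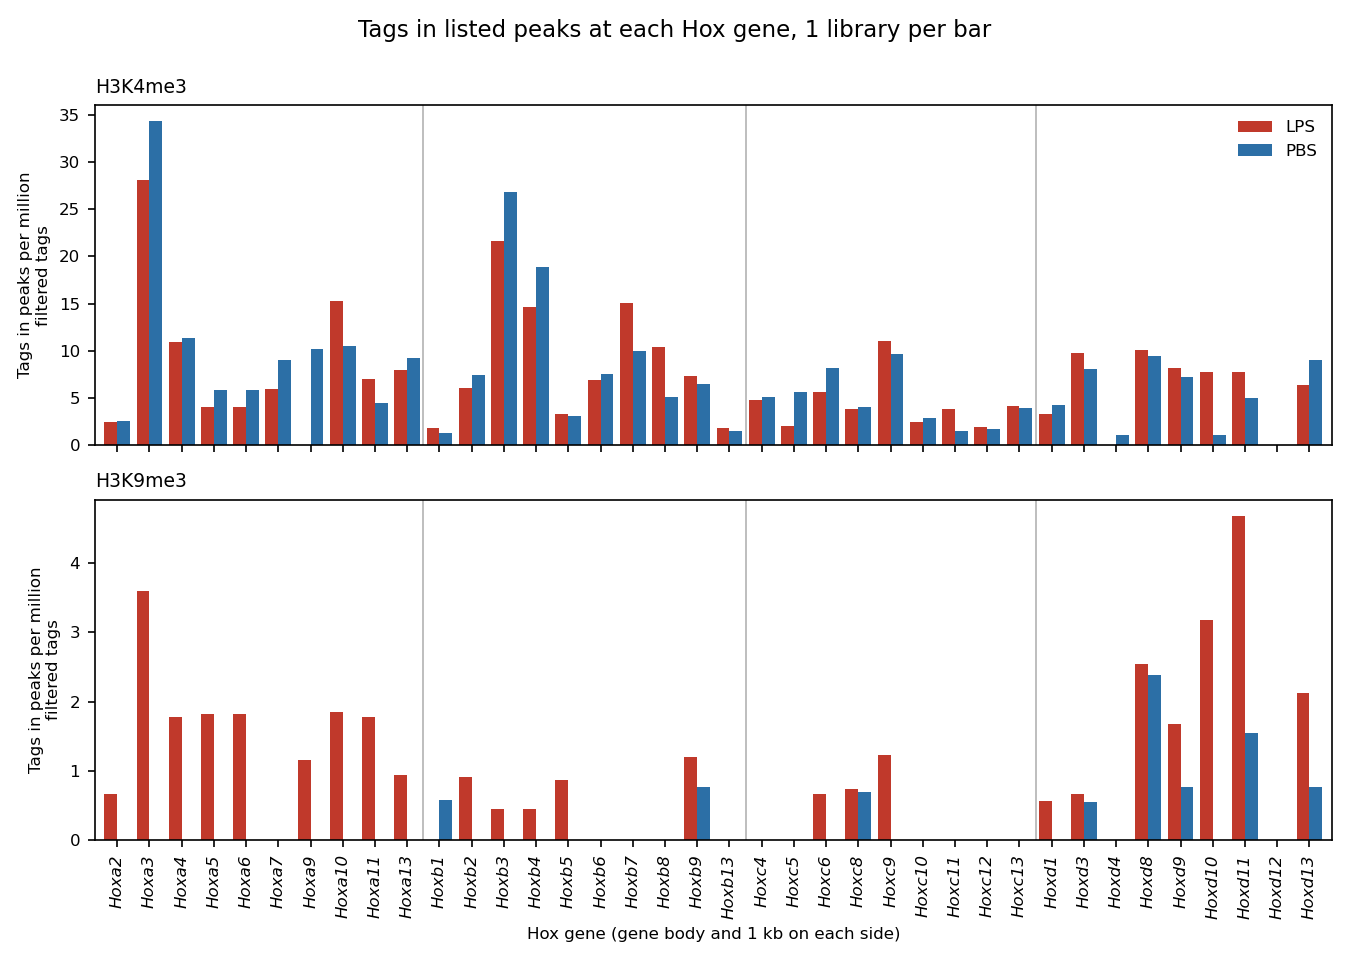
Tags in listed peaks, scaled to the filtered tags of each library, at each of the 38 Hox genes, H3K4me3 above and H3K9me3 below, with LPS bars in red left of PBS bars in blue, 1 library each. Hoxa3 and Hoxb3, whose long gene models meet several peaks, have the tallest H3K4me3 bars, and most H3K9me3 bars are LPS alone.

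In the Hoxa cluster (98.46 kb) the H3K4me3 signal leaned towards PBS at its middle and towards LPS further 5′. Over the whole interval, peaks held 1910 tags in LPS, on 21.33 kb, and 2466 in PBS, on 23.13 kb, with a log2 ratio of -0.22 (-0.30 to -0.13). The shift of all genes is larger than this. With scores of 100 or more the values were -0.46 for Hoxa and -0.38 for all genes, but these are unlike measures. The Hoxa sum then held peaks that passed in PBS only, whereas the median of all genes uses genes with such peaks in both lists. At Hoxa10 a PBS peak of 170 tags stayed (score 151.11) and the LPS peak of 242 tags fell out (99.25). At the 3′ end, Hoxa2, a hindbrain patterning gene, had 67 tags in LPS and 75 in PBS, which counting error does not separate. Hoxa4 had 291 tags in LPS and 338 in PBS, the densest Hoxa peak, centred near its start (-0.07, -0.30 to 0.16). Hoxa3, needed for the thymus and parathyroid, summed 752 tags in LPS and 1018 in PBS (-0.29, -0.42 to -0.15) over a model that includes the peaks of Hoxa4 and Hoxa5.

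From Hoxa5 to Hoxa9 the listed tags were fewer in LPS. The intervals of Hoxa5 and Hoxa7 below also hold the -0.37 of all genes, so counting error does not separate them from that general shift. The peak that Hoxa5, a lung and skeletal patterning gene, shares with Hoxa6 held 109 tags in LPS and 172 in PBS (-0.51, -0.87 to -0.15). The region at the 5′ end of Hoxa3 held 212 in LPS and 359 in PBS (-0.61, -0.86 to -0.36). Hoxa7 had 159 tags in LPS and 267 in PBS (-0.60, -0.89 to -0.31), and its peak covered 1.54 kb in LPS and 2.48 kb in PBS, so that the ratio per covered kb was 0.09. For Hoxa6, tags prorated to its own window gave 74.8 in LPS and 50.2 in PBS, and the log2 ratio turned to 0.72. Next in line, Hoxa9, a regulator of blood progenitors and a driver of leukaemia when overexpressed, had no listed H3K4me3 peak in LPS and 2 in PBS. These PBS peaks held 163 and 139 tags, on 1.62 and 1.43 kb, and scored 63.92 and 71.16, not far above the caller's threshold (50).

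Beyond Hoxa9 the order was the other way round. Hoxa10, which acts in the uterus and in blood, had 409 tags in LPS and 313 in PBS (0.54, 0.32 to 0.75), on 5.35 kb in LPS and 3.29 kb in PBS, and per covered kb -0.17. Of its regions, the one over Mir196b held 167 tags in LPS and 143 in PBS (0.37, 0.04 to 0.71), and the one at its inner start held 242 in LPS and 170 in PBS (0.66, 0.37 to 0.95). Hoxa11, a limb and kidney gene, had 187 tags in LPS and 132 in PBS (0.65, 0.32 to 0.99). A region between Hoxa11 and Hoxa13 held 124 in LPS and 85 in PBS (0.70, 0.29 to 1.11). These last 2 also favoured LPS per covered kb, by 0.37 and 0.60. Hoxa13, a digit and urogenital gene at the 5′ end, had 212 tags in LPS and 274 in PBS (-0.22, -0.49 to 0.04).

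**Figure D3:**
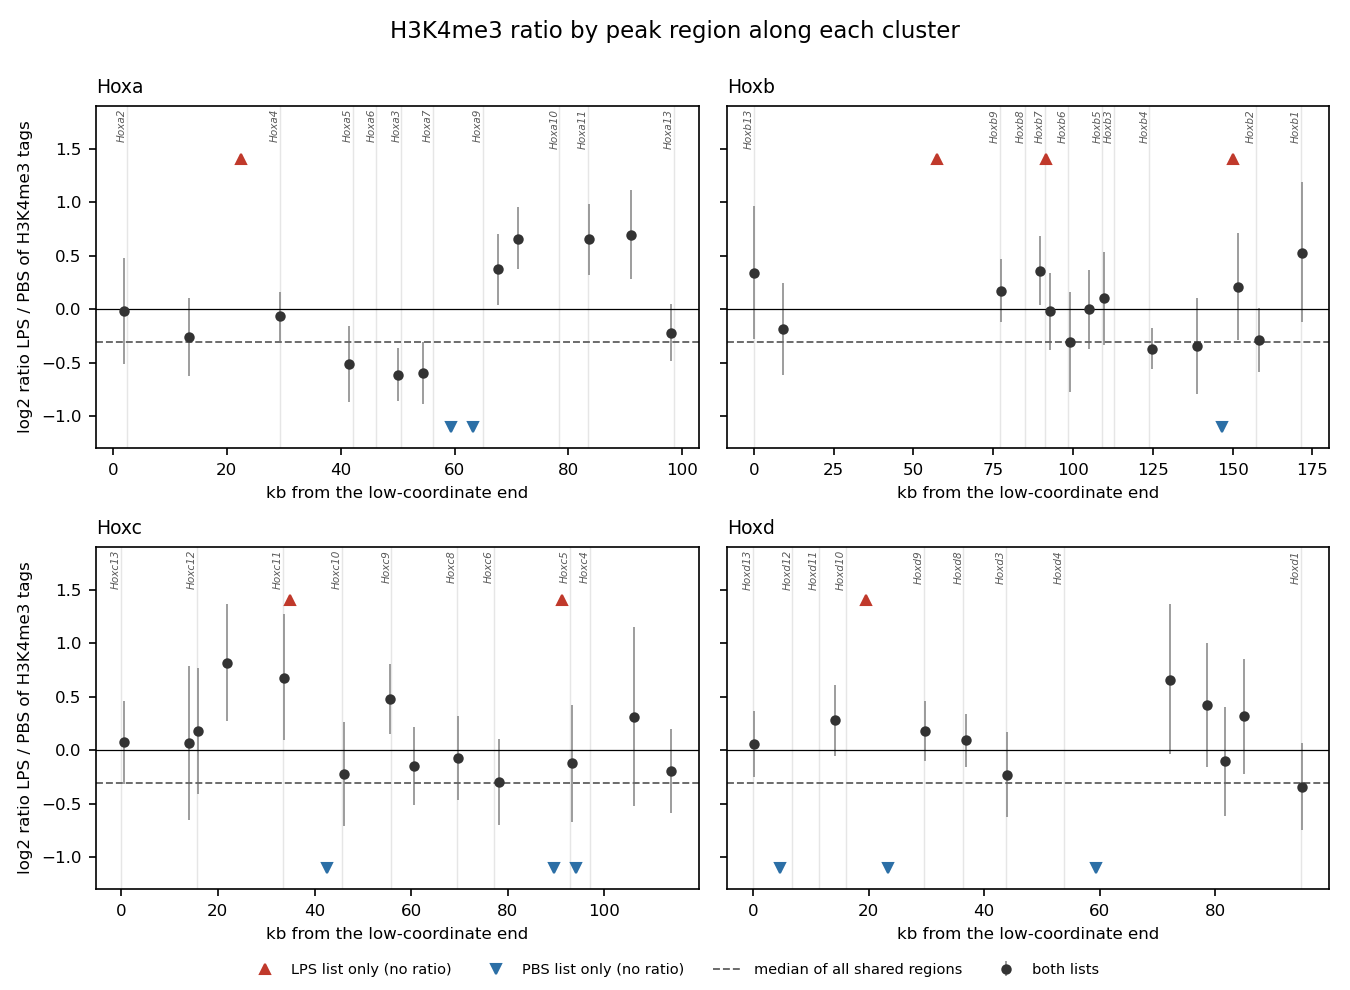
Log2 ratio of LPS to PBS H3K4me3 tags for each merged region along the 4 clusters, with 95% counting intervals (black). Triangles mark regions of 1 list, which have no ratio, and the dashed line is the median of all shared regions (-0.31). In Hoxa, regions near Hoxa5 to Hoxa7 lie between -0.61 and -0.51, and 4 regions from Hoxa10 to before Hoxa13 between 0.37 and 0.70.

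The Hoxb cluster (173.94 kb, of which a long stretch between Hoxb13 and Hoxb9 has few peaks) held 1822 H3K4me3 tags in LPS, on 22.16 kb, and 2005 in PBS, on 18.84 kb (0.01, -0.08 to 0.10). Per covered kb the ratio was -0.22, a change of sign. With scores of 100 or more it was -0.84, but this sum held peaks that passed in PBS only. Near Hoxb8 a PBS peak of 153 tags passed (score 148.35), and the LPS peak of 177 tags in the same region did not (85.69). The -0.38 of all genes is a median over genes with such peaks in both lists, so it is not a like measure. All 10 members had peaks in both lists. Hoxb4, which promotes self-renewal of blood stem cells when overexpressed, had the strongest peak of the cluster, which held 391 tags in LPS and 560 in PBS (-0.37, -0.56 to -0.18), on 2.98 kb in LPS and 3.01 kb in PBS. Its ratio equalled the shift of all genes. Hoxb3, whose model includes that peak, summed 579 tags in LPS and 795 in PBS (-0.31, -0.46 to -0.15). Hoxb2 had 162 in LPS and 219 in PBS (-0.28, -0.59 to 0.01).

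Towards the middle of Hoxb the LPS peaks were wider. Hoxb8, a gene that keeps myeloid progenitors dividing when it is forced on, had 277 tags in LPS and 153 in PBS (1.01, 0.72 to 1.30), on 3.25 kb in LPS and 1.24 kb in PBS. Of these, 177 in LPS and 153 in PBS lay in the region of both lists (0.36, 0.04 to 0.68), and 100 came from a peak listed in LPS only. Per covered kb the ratio of Hoxb8 was -0.39, so the sign depended on the measure. Hoxb7, which shares these peaks, had 404 in LPS and 296 in PBS (0.60, 0.38 to 0.82) and -0.37 per covered kb. Hoxb5 had 89 tags in LPS and 92 in PBS, Hoxb6 186 in LPS and 224 in PBS, and Hoxb9 195 in LPS and 192 in PBS. The intervals of these 3 all held 0, and those of Hoxb5 and Hoxb9 lay above the -0.37 of all genes. The outermost genes were weak. Hoxb1, a hindbrain gene, had 48 tags in LPS and 37 in PBS (0.53, -0.12 to 1.19), and Hoxb13, a prostate and tail gene far from the rest, 49 in LPS and 43 in PBS (0.34, -0.28 to 0.96).

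The Hoxc cluster (115.73 kb) had the lowest signal of the 4 per covered kb, with 70.0 tags in LPS and 74.7 in PBS. Its peaks held 1174 tags in LPS, on 16.78 kb, and 1415 in PBS, on 18.93 kb (-0.12, -0.23 to -0.01), and 0.06 per covered kb. Hoxc9, a thoracic spinal cord gene, had the most, 296 tags in LPS and 287 in PBS (0.20, -0.04 to 0.43). One of its regions held 179 in LPS and 143 in PBS (0.47, 0.15 to 0.80) and the other 117 in LPS and 144 in PBS (-0.15, -0.51 to 0.21). Hoxc11 had 103 tags in LPS and 43 in PBS (1.41, 0.88 to 1.96). Its shared region held 62 in LPS and 43 in PBS (0.68, 0.09 to 1.27), and the remaining 41 came from another LPS peak.

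Hoxc5 and Hoxc6 went the other way. Hoxc5 had 54 tags in LPS and 168 in PBS (-1.49, -1.96 to -1.04), the lowest ratio among the 35 members. The peak at its start was close in both, 54 tags in LPS and 65 in PBS (-0.12, -0.67 to 0.43), and another PBS peak of 103 tags lay over Mir615. Per covered kb the ratio was -0.07. Hoxc6 had 151 tags in LPS and 244 in PBS (-0.54, -0.84 to -0.24), and at its 3′ end the lists placed neighbouring peaks that did not overlap, 60 tags in LPS and 120 in PBS. Hoxc4 had 129 in LPS and 153 in PBS, Hoxc8 103 in LPS and 120 in PBS, and Hoxc10 65 in LPS and 84 in PBS. At the 5′ end Hoxc12 had 52 in LPS and 51 in PBS, and Hoxc13, a hair and nail gene, 111 in LPS and 117 in PBS. The intervals of these 5 members all held 0, and that of Hoxc13 lay above the -0.37 of all genes.

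In the Hoxd cluster (96.92 kb) the sums of both libraries lay close together. Peaks held 1280 tags in LPS, on 15.53 kb, and 1440 in PBS, on 14.75 kb (-0.02, -0.13 to 0.09). Hoxd8 had 270 tags in LPS and 281 in PBS (0.09, -0.15 to 0.34), and Hoxd9 had 219 in LPS and 215 in PBS (0.18, -0.10 to 0.46). At Hoxd13, the gene of the digits, the peak over the start held 170 tags in LPS and 181 in PBS (0.06, -0.25 to 0.37). A further PBS peak of 88 tags near its window's edge brought its sum to 269 in PBS (-0.51, -0.80 to -0.23).

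Hoxd10 and Hoxd11 met the same 206 LPS tags. For Hoxd11, a forearm and kidney gene, the PBS sum was 148 tags (0.63, 0.31 to 0.94), and in the region of both lists 162 tags in LPS stood against 148 in PBS (0.28, -0.05 to 0.61). For Hoxd10, a limb and spinal cord gene, the only PBS peak was a weak one of 32 tags at its own start, which the LPS list lacked. Of the 206 LPS tags, 162 lay in the region where PBS had 148, but that PBS peak ended short of the Hoxd10 window. The resulting log2 ratio of 2.84 (2.29 to 3.42), the highest of all members, therefore compared different peaks, and tags prorated to the window gave 0.93. Hoxd3 had 261 tags in LPS and 238 in PBS (0.28, 0.02 to 0.54), or -0.09 with prorated tags. Hoxd1 had 89 in LPS and 125 in PBS (-0.34, -0.75 to 0.06). Hoxd4 had no listed peak in LPS and 1 of 33 tags in PBS. Hoxd12 had none in either library.

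Across the clusters, members with the same number are paralogues, copies of 1 ancestral gene. Group 11 (Hoxa11, Hoxc11 and Hoxd11) had the highest median log2 ratio of the groups with 3 or more members in both lists, 0.65, and favoured LPS in 3 of 3. Group 10 followed with 0.54, although Hoxc10 was at -0.22. Groups 5 and 6 were lowest, each with -0.51, the ratio of the peak that Hoxa5 and Hoxa6 share. With prorated tags group 6 was at -0.12, above group 3 (-0.29), while group 5 remained at -0.51. Group 9 held 0.17 to 0.20 at its 3 members with a ratio, beside Hoxa9 with no LPS peak. These medians rest on 3 genes each.

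H3K9me3 was listed at more Hox genes in LPS than in PBS. In LPS 24 of 38 members (63.2%) met an H3K9me3 peak, against 28.1% of all genes. In PBS 8 members (21.1%) did, against 25.6% of all genes. Of these, 7 were shared, 17 were listed in LPS only (all genes 11.2%) and 1, Hoxb1, in PBS only (all genes 8.74%). Hoxd10 is among the 17 only because its window met the edge of an LPS peak, in a region that both lists hold. Hox genes are short, with a median length of 3.72 kb against 17.17 kb for all genes, so their windows leave less room for a peak. Peaks of H3K9me3 in the clusters held few tags, though they were longer and held more than those of the genome. Their medians were 439 bp and 33.5 tags in LPS and 291.5 bp and 21 tags in PBS. Over the genome the medians were 258 bp and 17 tags (LPS) and 245 bp and 16 tags (PBS). With scores of 100 or more only, 7 of 38 members had H3K9me3 in LPS (all genes 7.87%) and 1 of 38 in PBS (all genes 6.63%). Among the 7, Hoxa3 met the peak of Hoxa4 and Hoxd10 that of Hoxd11.

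The H3K9me3 peaks lay on top of H3K4me3. Of the 26 in LPS 22 met an H3K4me3 peak of the same treatment, and of the 10 in PBS all did, against 33.7% (LPS) and 22.4% (PBS) of all H3K9me3 peaks. Taken from the side of H3K4me3, 18 of 56 Hox peaks (32.1%) met an H3K9me3 peak in LPS and 9 of 56 (16.1%) in PBS. Over the genome these shares were 18.8% in LPS and 12.6% in PBS, so more H3K4me3 peaks met H3K9me3 in LPS outside the clusters too. The H3K9me3 libraries had no control in the peak calls, and whether the shared positions reflect both marks on the same chromatin was not tested.

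**Figure D4:**
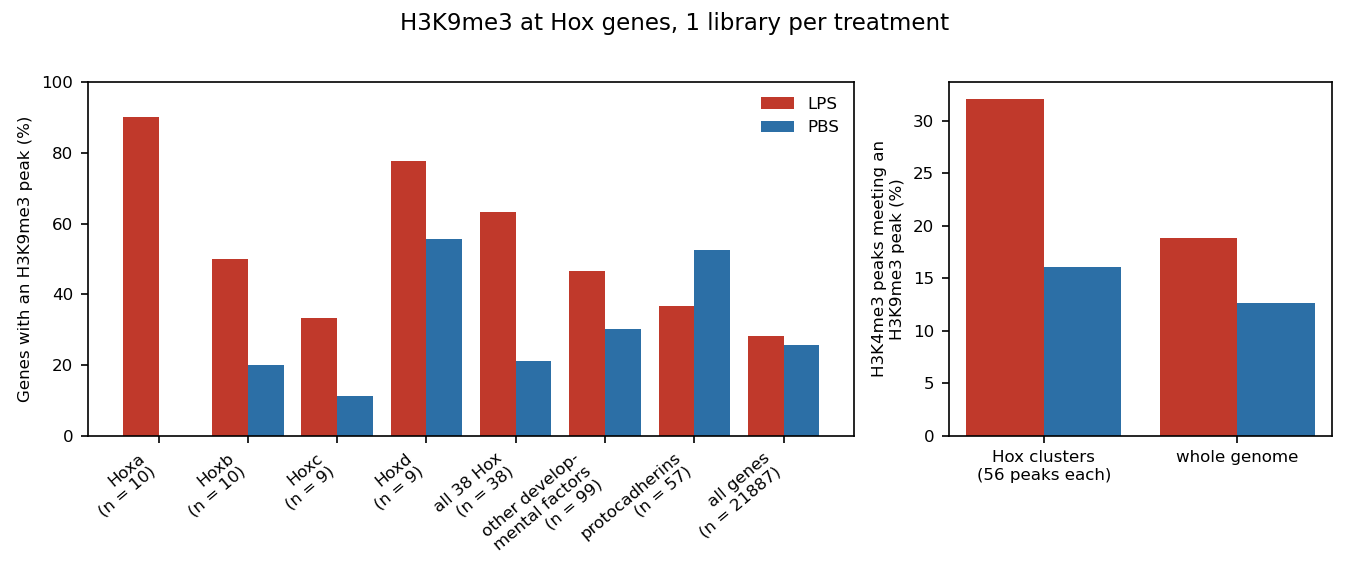
Left, the percentage of genes with an H3K9me3 peak in the gene body or 1 kb around it, for each cluster and for comparison lists. Right, the percentage of H3K4me3 peaks that meet an H3K9me3 peak of the same treatment. LPS bars (red) stand left of PBS bars (blue), 1 library each. At all 38 Hox genes the shares are 63.2% in LPS and 21.1% in PBS, and over all genes 28.1% in LPS and 25.6% in PBS.

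The clusters differed in this. In Hoxa 9 of 10 members had H3K9me3 in LPS, all but Hoxa7, and 0 of 10 in PBS. The Hoxa interval held 9 peaks with 357 tags on 4.32 kb in LPS and 1 peak with 24 tags on 0.35 kb in PBS, or 82.7 tags per covered kb in LPS and 69.4 in PBS. The strongest lay at the start of Hoxa4, with 51 tags and a score of 224.9. Others held 53 tags at Hoxa10, 52 at Hoxa5 and Hoxa6, 51 at Hoxa11, 33 at Hoxa9, 27 at Hoxa13 and 19 at Hoxa2, all in LPS with none listed in PBS. Hoxa3 summed 103 tags in LPS, those of the peaks at Hoxa4 and Hoxa5. At Hoxa9 the H3K9me3 peak of LPS fell inside the stretch where PBS had an H3K4me3 peak of 139 tags and LPS had none listed. The 1 region with H3K9me3 in both lists lay between Hoxa11 and Hoxa13 and held 36 tags in LPS and 24 in PBS (0.54, -0.24 to 1.35).

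In Hoxd 7 of 9 members had H3K9me3 in LPS and 5 of 9 in PBS. This cluster also had the most H3K9me3 in PBS, 166 tags in 6 peaks on 2.33 kb, beside 351 tags in 9 peaks on 4.44 kb in LPS. Hoxd13 had 61 tags in LPS and 21 in PBS over its start (1.49, 0.76 to 2.28). Hoxd9 had 48 in LPS and 21 in PBS (1.15, 0.38 to 1.96). The shared region at Hoxd11 held 91 in LPS and 43 in PBS (1.04, 0.50 to 1.60). These regions were covered over longer stretches in LPS, 0.77 kb at Hoxd13, 0.54 kb at Hoxd9 and 1.01 kb at Hoxd11, against 0.32, 0.29 and 0.52 kb in PBS. Hoxd11 met another LPS peak of 43 tags. The window of Hoxd10 met only the edge of the 91-tag LPS peak, and the PBS peak of that shared region ended outside it. Hoxd10 is thus counted as LPS only although the region was in both lists. At Hoxd8 a region of 30 tags in LPS and 14 in PBS (1.06, 0.10 to 2.09) stood beside one of 43 in LPS and 52 in PBS (-0.32, -0.94 to 0.29). Per covered kb these 5 ratios lay between -0.01 and 0.25. The intervals of 4 of the 5 left 0 out, yet tag density within them was nearly alike. Hoxd3 had 19 tags in LPS and 15 in PBS at different places, and Hoxd1 16 in LPS only.

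Hoxb and Hoxc had less. In Hoxb 5 of 10 members had H3K9me3 in LPS and 2 of 10 in PBS. Hoxb9 had 34 tags in LPS and 21 in PBS (0.65, -0.18 to 1.51). Hoxb2 (26 tags), Hoxb5 (25) and the peak shared by Hoxb3 and Hoxb4 (13) were listed in LPS only, and Hoxb1 (16) in PBS only. In Hoxc 3 of 9 members had H3K9me3 in LPS and 1 of 9 in PBS. Hoxc8 had 21 tags in LPS and 19 in PBS (0.10, -0.87 to 1.08), and Hoxc9 (35) and Hoxc6 (19) were listed in LPS only. By paralogue group, H3K9me3 was listed in LPS at 4 of 4 members of group 9, 3 of 3 of group 3 and 2 of 2 of group 2 (all genes 28.1%), and in neither library at groups 7 and 12. In group 3, the peaks of Hoxa3 and Hoxb3 are those of Hoxa4, Hoxa5 and Hoxb4, which their long gene models include.

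Promoter windows gave a view that does not depend on gene length, but they do not cover the clusters evenly. Most are of Hoxa and Hoxd, with only Hoxb1, Hoxb4 and Hoxb8 from Hoxb and Hoxc4 from Hoxc. The shares below are therefore not those of the whole family. No Hoxa window met an H3K9me3 peak in either library. Of the 24 windows of 22 members, 14 met an H3K4me3 peak in LPS and 13 in PBS (58.3% in LPS, 54.2% in PBS), against 55.2% (LPS) and 59.2% (PBS) of 21263 protein-coding windows. H3K9me3 met 4 Hox windows in LPS (16.7%), those of Hoxd13, Hoxd1, Hoxd8 and the inner start of Hoxd11, and 2 in PBS (8.33%), those of Hoxd13 and Hoxb1. Over protein-coding windows these shares were 3.95% in LPS and 2.84% in PBS. The window of Hoxd13 shown above was thus the only member's window with all 4 libraries. The 12 Hox windows with H3K4me3 in both libraries had a median of 16 CpG (range 6 to 35, highest at Hoxa13), and the 9 with none in either had 7 (range 2 to 24). Over protein-coding windows the median was 17 CpG with H3K4me3 in both and 2 with it in neither. Hoxa6, with 24 CpG and no H3K4me3 peak at the window, stood apart from this order. The motif TGATNNAT, bound by Hox proteins together with Pbx partners, was searched on both strands. It occurred at 4 of 24 windows (16.7%), of Hoxa2, Hoxb1, Hoxb8 and Hoxd11, and at 6.68% of protein-coding windows. Such a match does not show binding.

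The microRNA genes followed the peaks around them. The miR-196b sequence shown above lay inside an H3K4me3 peak of 167 tags in LPS and of 143 in PBS. Its near copy miR-196a is made from a pair of loci, and both lay over 2 kb from any H3K4me3 peak, Mir196a-1 at 5471 bp in LPS and 5596 bp in PBS and Mir196a-2 at 2178 bp in LPS and 2685 bp in PBS. The miR-10a sequence lay 475 bp from the Hoxb4 peak in LPS and 424 bp in PBS. That of miR-10b lay 13307 bp from the nearest peak in LPS and 1123 bp in PBS, where the nearest was the 33-tag peak of Hoxd4. The miR-615 sequence lay in the 103-tag PBS peak near Hoxc5, and 278 bp from the nearest LPS peak.

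Genes that flank the clusters and genes that work with Hox proteins had their own values. Evx1, a homeobox gene just beyond Hoxa13, had 232 H3K4me3 tags in LPS and 109 in PBS (1.24, 0.90 to 1.58). Evx2, beyond Hoxd13, had 199 in LPS and 134 in PBS (0.72, 0.40 to 1.05). The peaks of both covered more in LPS, 2.60 kb at Evx1 and 2.44 kb at Evx2, against 1.26 and 1.44 kb in PBS. Hotair, a long noncoding RNA gene between Hoxc11 and Hoxc12, met a region of 76 tags in LPS and 48 in PBS (0.81, 0.27 to 1.37). This region lay outside the Hotair gene body, within 1 kb of it, and had the highest ratio of the shared regions of the clusters. Skap1, beyond Hoxb1, was listed in LPS only, with 57 tags. Others went the other way. Snx10 had 359 tags in LPS and 658 in PBS (-0.72, -0.91 to -0.54), and Hotairm1, a noncoding RNA gene beside Hoxa2, 288 in LPS and 484 in PBS (-0.60). Of the 13 protein-coding flanking genes found, 12 were in both lists, with a median of -0.30, and 3 of the 12 had a ratio above 0.

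The TALE homeodomain cofactors, which bind DNA with Hox proteins, were in both lists at 9 of 9, with a median of -0.34 and none past a ratio of 2. Meis1 was lowest at 302 tags in LPS and 628 in PBS (-0.91, -1.11 to -0.71). The 16 Polycomb genes in both lists had a median of -0.34, and none was past a ratio of 2. MLL and trithorax genes were in both at 12 of 12 (median -0.44, none past a ratio of 2). The medians of all 3 lists differed from that of all genes by at most 0.07.

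Developmental transcription factors of other families, such as Pax, Lhx and Tbx, were set beside the Hox genes, together with the clustered protocadherins, another family in gene clusters. Of 99 such developmental factors 89 (89.9%) were in both H3K4me3 lists, against 67.3% of all genes. Their median was -0.07, or 0.30 above all genes and 0.16 above them per covered kb. A ratio of 2 was passed by 2 of the 89 in favour of LPS (all genes 0.713%) and by 2 in favour of PBS (all genes 4.64%). H3K9me3 was listed at 46 of the 99 in LPS (46.5%, all genes 28.1%) and 30 in PBS (30.3%, all genes 25.6%). Of 57 protocadherins 35 (61.4%) were in both H3K4me3 lists, near the share of all genes, with a median of -0.49, or 0.13 below all genes. The upper quartile and the highest of their ratios were both -0.285, so members appear to share peaks and are not 57 independent genes. H3K9me3 was listed at 21 protocadherins in LPS (36.8%) and 30 in PBS (52.6%). The H3K9me3 count was thus higher in LPS at Hox genes and at the other developmental factors and lower in LPS at the protocadherins. Over all genes it was also higher in LPS (28.1% in LPS, 25.6% in PBS). No test of these differences was possible with 1 library a group.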

How the data were processed

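Chromatin of mouse peritoneal macrophages was immunoprecipitated for H3K4me3 or H3K9me3 after 24 h with LPS or PBS, giving 4 groups of 1 library each. Tools listed in the submitters' processing notes are Bowtie 0.12.8, CASAVA 1.4, DiffBind and MACS 1.4.2, with the build mm10. Per the file headers, the authors called peaks in each library with no control, at a p threshold of 1e-05, and kept at most 1 tag per position. The deposited tables give the count of tags in each peak, a score (minus 10 times the base 10 logarithm of the caller's p-value, lowest listed value 50 or just above) and a fold enrichment over local background. Peaks were filtered by score, and the fold was not used in the text.

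From these, tags of peaks with at least 1 bp in a gene body or 1 kb around it were summed per gene (RefSeq genes of GRCm38.p6, the build of mm10) and divided by filtered tags (26748289 and 29681491 for H3K4me3 LPS and PBS, 28586946 and 27727997 for H3K9me3 LPS and PBS). Cluster intervals ran over all members and 1 kb beyond. Gene 5′ ends are the outermost ends of the gene models. Their strand was that of the promoter table for the 22 members found there and that of their cluster for the other 16. Intervals are exact 95% Clopper-Pearson intervals of the share of LPS tags and cover counting error only, since reads are not independent molecules. At this depth the smallest peaks held 11 to 17 tags. Python 3.11.15, pandas 2.3.3, numpy 2.4.6 and scipy 1.17.1 were used, and the overlap and interval code was tested on simulated data.

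The members and gene lists were chosen with earlier results of these data known. All members are accounted for. Values in both libraries were to be given for members with the most tags, the highest and lowest ratios, a peak in 1 list or none, or H3K9me3, and for genes of other lists past a ratio of 2 or in 1 list. The developmental factors and protocadherins are given by counts only. Alternatives were total tags, centring, tags per covered kb, scores of 100 or more, prorated tags and other windows. A further gene that matches the rule, and a result for a gene of another list, are not reported here.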

Additional observations from a re-analysis of the deposited data

How the results depend on the processing

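No paired analysis was possible because each group held 1 library, and for the same reason no replicate could be left out. Prorating tags kept every cluster ratio and the member median as reported. The signs of the cluster ratios depended on the scaling. Scaled by total tags, the log2 ratio was -0.12 over Hoxa, 0.11 over Hoxb, -0.02 over Hoxc, 0.082 over Hoxd and 0.089 for the member median. Centred on the median of all genes, these were 0.15, 0.38, 0.25, 0.35 and 0.36. In tags per covered kb they were -0.10, -0.22, 0.055, -0.10 and -0.12. With scores of 100 or more they were -0.46, -0.84, 0.036, 0.031 and -0.23. The cluster sums at that score also hold peaks that passed in 1 library only. The member median was 0.024 with gene bodies alone and -0.07 with 2.5 kb on each side. With scores of 100 or more, members with H3K4me3 in both lists numbered 21 (35 as reported), which at 55.3% is below the 62.1% of all genes, where all listed peaks gave 92.1% at members and 67.3% over all genes. Members with H3K9me3 numbered 7 in LPS (24 as reported) and 1 in PBS (8). Other windows and the overlap rule moved these counts by at most 3. Single members moved more, since a wider window reaches a neighbour's peak: with 2.5 kb on each side the ratio was -2.91 at Hoxa2, -2.13 at Hoxa6 and 0.26 at Hoxd10. Counts limit the precision of the H3K9me3 ratios: 11 of 26 cluster peaks in LPS and 8 of 10 in PBS held under 30 tags.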
